A study of Mus musculus with 6 samples.

Results

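The 41 genes described here encode the machinery that copies DNA in S phase. They were chosen by name: the proteins that license origins, the parts of the replication fork and the enzymes that supply deoxynucleotides. All 41 were found among the 49548 genes of the deposited table. Where a name was carried by more than 1 gene, the gene with the highest mean was taken.

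The study asked how amisulpride, an antipsychotic that blocks dopamine receptors, alters the mesenchymal cells of the joint lining, the synovial fibroblasts (SFs). The SFs were primary cultures from ankle joints of 8-week-old mice on a CBA and C57BL/6J background, and all 6 libraries came from the genotype hTNFtg, in which a human TNF transgene drives an inflammatory arthritis. Per the labels, 3 libraries came from cells that received no treatment and 3 from cells kept in 500 μM amisulpride for 48 hours. The methods of the study speak of vehicle rather than of no treatment, name 3 biological replicates per group, and state that CD45+ cells were depleted at passage 1. The cells were cultured, and no library from cells of another genotype was compared here.

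Before a cell copies its DNA, the origin recognition complex, Cdc6 and Cdt1 load the MCM helicase ring onto origins, and geminin binds Cdt1 to stop a repeated loading. In S phase Cdc45 and the GINS complex join the ring to form the active helicase, DNA polymerases α, δ and ε copy the strands, PCNA and its loader RFC hold them on the template, RPA covers single strands, and Fen1 and DNA ligase I join the Okazaki fragments. The transcription of many of these genes rises as cells enter S phase, when E2F factors are released from the retinoblastoma proteins, so in a bulk library their level varies with the share of cycling cells.

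Promoters of 33 of the 41 genes were read from RefSeq on build GRCm38.p6, as windows from 250 bases before to 50 bases after a transcript start. No window was given for Gins1, Gins2, Gins4, Gmnn, Mcm4, Pole, Prim2 and Rfc2. E2F words were defined as TTTGGCGC, TTTCCCGC, TTTGCCGC or TTTCGCGC on either strand, and overlapping words were each counted. At least 1 stood in 14 of 38 windows (36.84%), against 3.84% of the 11075 windows of all genes tested and 1 of 25 windows of the mitosis genes described further on. The windows shown are examples: Mcm3, Mcm5, Mcm6 and the clamp loader subunit Rfc3 carry several words, as does 1 window of Mcm7, while Fen1, the gene with the lowest p of those tested, carries none in this window. Capitals mark the E2F words.
Mcm3 (chr1:20820263-20820562, minus strand): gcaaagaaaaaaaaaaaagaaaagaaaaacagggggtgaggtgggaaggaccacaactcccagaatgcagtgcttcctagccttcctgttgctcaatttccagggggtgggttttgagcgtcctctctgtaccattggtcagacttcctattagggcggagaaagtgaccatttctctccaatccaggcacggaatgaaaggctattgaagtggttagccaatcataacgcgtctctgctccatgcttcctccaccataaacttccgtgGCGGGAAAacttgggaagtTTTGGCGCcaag
Mcm5 (chr8:75109259-75109558, plus strand): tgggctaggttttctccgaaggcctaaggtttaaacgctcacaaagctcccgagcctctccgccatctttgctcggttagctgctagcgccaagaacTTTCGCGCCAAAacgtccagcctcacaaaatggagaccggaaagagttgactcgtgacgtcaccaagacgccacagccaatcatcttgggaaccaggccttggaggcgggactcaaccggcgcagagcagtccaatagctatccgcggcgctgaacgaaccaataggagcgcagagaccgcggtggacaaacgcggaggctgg
Mcm6 (chr1:128359656-128359955, minus strand): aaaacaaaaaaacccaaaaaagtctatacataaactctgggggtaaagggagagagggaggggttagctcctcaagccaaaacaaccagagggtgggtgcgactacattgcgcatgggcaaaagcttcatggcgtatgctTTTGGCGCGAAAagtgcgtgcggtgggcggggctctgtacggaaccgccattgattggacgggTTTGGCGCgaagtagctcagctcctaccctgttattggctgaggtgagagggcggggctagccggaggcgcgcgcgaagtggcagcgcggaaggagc
Rfc3 (chr5:151651159-151651458, minus strand): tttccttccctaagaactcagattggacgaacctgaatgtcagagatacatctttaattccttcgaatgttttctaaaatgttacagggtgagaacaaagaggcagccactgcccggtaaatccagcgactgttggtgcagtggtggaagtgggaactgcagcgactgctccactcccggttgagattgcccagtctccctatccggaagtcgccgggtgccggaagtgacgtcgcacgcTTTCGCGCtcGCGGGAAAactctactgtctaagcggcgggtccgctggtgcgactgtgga
Fen1 (chr19:10203872-10204171, minus strand): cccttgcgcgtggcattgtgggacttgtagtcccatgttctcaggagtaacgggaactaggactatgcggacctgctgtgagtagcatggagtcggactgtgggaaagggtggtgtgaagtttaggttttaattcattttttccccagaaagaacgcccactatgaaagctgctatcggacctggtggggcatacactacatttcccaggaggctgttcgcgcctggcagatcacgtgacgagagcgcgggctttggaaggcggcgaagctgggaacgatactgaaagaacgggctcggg
In Mcm5 the words began 153 and 149 bases before the start, on opposite strands, and shared bases. Mcm6 had such an overlapping pair at 110 and 106 bases before the start and a further word at 47. In Mcm3 the words began at bases 20 and 39 of the transcript, and in Rfc3 at 10 bases before the start and at base 1. By role, an E2F word was found in 3 of 4 licensing genes with a window, 4 of 6 MCM genes, 4 of 7 polymerase and primase genes, 1 of 2 Cdc45-GINS genes, 1 of 5 clamp and loader genes, 1 of 2 Okazaki genes, none of 3 RPA genes and none of 4 nucleotide supply genes. The CHR word TTTGAA, which marks many genes of the later cell cycle, was found in 13.16% of the windows of the replication genes, 11.6% of those of all genes tested and 76% of those of the mitosis genes. CCAAT was found in 57.89%, 37.35% and 80% of them. Words of different kinds may share bases, and a match describes the letters only. Among the genes tested, the 12 with an E2F word had a median log2 change with amisulpride of −0.22 and the 17 with a window but without a word one of −0.49.

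The values are normalised counts, that is, reads per gene after scaling of each library and rounding by the authors. The step between low values gave approximate depths of 2.52 to 4.72 M reads per library, with untreated replicate 1 uncertain, so that 3 reads correspond to 2.50 to 5.37 normalised counts. Amisulpride replicate 3, the shallowest library, stood apart. On the first principal component, which held 37.1% of the variance of the genes tested, it lay at 73.9 and the other 5 libraries between −38.2 and 10.4. Of these the untreated libraries lay at −38.2, −20.9 and −18.1 and amisulpride replicates 1 and 2 at −7.03 and 10.4. The groups thus did not overlap on the component that also set amisulpride replicate 3 apart. All 12 fibroblast markers were present, with summed normalised counts of 51427 to 75155 in untreated and 61750 to 112900 in amisulpride libraries. The 12 myeloid markers were also all present despite the CD45 depletion, at sums of 2817 to 5468 and 2712 to 5035. In fitted change 8 of them were lower with amisulpride and 4 higher. Csf1r and Cd14 had lower means past the study thresholds given below, which is 2 of 12 markers (16.7%; all genes 5.7%). With the replicate number as a block Ptprc, which encodes CD45, also passed them (−1.16, with an unadjusted limma p of 0.036 in place of 0.104), and Cd14 had an adjusted p of 0.012. In that fit 3 markers were lower and 2 higher at an unadjusted p under 0.05 (25% and 16.7%; all genes 7.43% and 7.14%). Their part in the results was not tested. Of the markers of other types, 0 of 6 endothelial, 1 of 7 lymphocyte (Cd3d), 0 of 5 chondrocyte and 1 of 6 muscle genes (Acta1) reached the level needed for a test, and Cdh5, Cd3e and Myh4 were at 0 in every library.

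Of the 41 genes, 35 reached 10 normalised counts in at least 3 of the 6 libraries and were tested among 12614 genes. The other 6 were Orc1, Mcm10, Gins1, Gins3, Prim1 and Pole, which encode parts of origin recognition, helicase activation, GINS, primase and polymerase ε. Their highest value in any library was 12, in Gins3, and Orc1 stood at 3, 2 and 4 in the untreated and 0, 0 and 2 in the amisulpride libraries. Values of 0 to 12 reach from below the level of 3 reads to a few times that level. With no filter on low values all 41 genes were tested, and Orc1 then passed the study thresholds described below beside Fen1 and Gmnn.

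**Figure D1:**
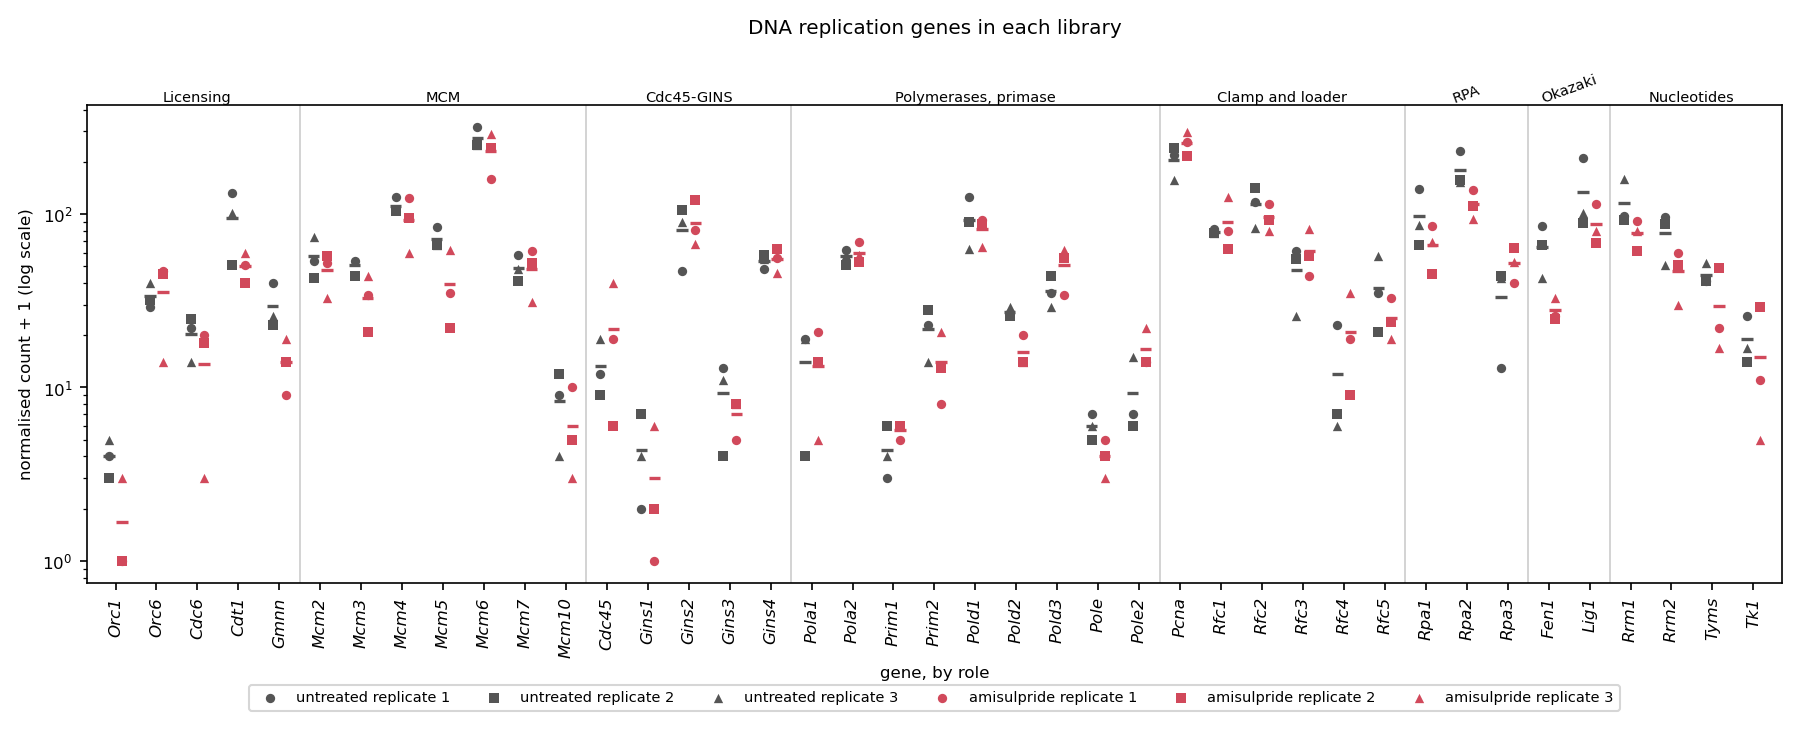
Normalised counts plus 1 (log axis) of the 41 DNA replication genes in 3 untreated (grey) and 3 amisulpride (red) libraries, ordered by role, with symbols for replicates and short bars for group means. Genes range from 0 in 2 libraries (Orc1) to 317 (Mcm6), and the libraries of both groups overlap for most genes.

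The comparison of amisulpride with untreated SFs asked whether these genes changed with the drug. Fen1, the nuclease that trims Okazaki fragments, and Gmnn, which encodes geminin, had lower means in treated cells and passed the thresholds used in the study, which ask for an unadjusted p under 0.05 and a log2 change that reaches 1 in either direction. These are 2 of 35 genes (5.71%), and 5.7% of all genes tested passed the same rule, so that the share did not stand out. None of the 35 had an adjusted p under 0.05 (limma, Benjamini-Hochberg over 12614 genes), where 36 of all genes (0.285%) did, and the lowest adjusted p, that of Fen1, was 0.224. With the replicate number as a block 263 genes (2.08%) passed, again without any of the 35, and the lowest was 0.113. An unadjusted p under 0.05 was found for 5 of 35 genes (Fen1, Mcm5, Gmnn, Rpa2 and Cdt1), or 14.3%, against 10.9% of all genes tested. All 5 were lower with amisulpride, a direction in which 5.77% of all genes had such a p. With the replicate block 7 of 35 had an unadjusted p under 0.05 (20%; all genes 14.6%). Of these 6 were lower (17.1%; all genes 7.43%) and 1, Rpa3, was higher (2.86%; all genes 7.14%).

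In direction the genes leaned to lower values. The fitted change was below 0 for 23 of the 35 (65.7%) and for 49.9% of all genes, and the median log2 change was −0.29 against 0.00 for all genes. The lowest untreated library lay above the highest amisulpride library in 6 genes (Gmnn, Mcm5, Pold2, Rpa2, Fen1 and Rrm1), or 17.1%, and in 8.66% of all genes. No replication gene showed the opposite separation, which 7.8% of all genes did. Between libraries of the same replicate number, 14 of the 35 were lower with amisulpride in all 3 pairs (40%; all genes 17.8%) and 2 were higher in all 3 (5.71%; all genes 16.9%). Without amisulpride replicate 3, 34 genes could be tested. Their median change was −0.14, 22 lay below 0, and 3 passed the study thresholds (Fen1, Gmnn and Mcm5). Without untreated replicate 1 none passed. In such libraries fewer cells in S phase and less RNA of these genes per cell cannot be told apart.

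The precision was modest. In the fit without the replicate block, the SE of the log2 change had a median of 0.36 and ranged from 0.26 for Pcna to 0.76 for Pola1. The 95% interval lay within a doubling or a halving, that is between −1 and 1, for 9 genes. It reached −1 or lower for 21 genes and 1 or higher for 7, and it held 0 for 30.

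**Figure D2:**
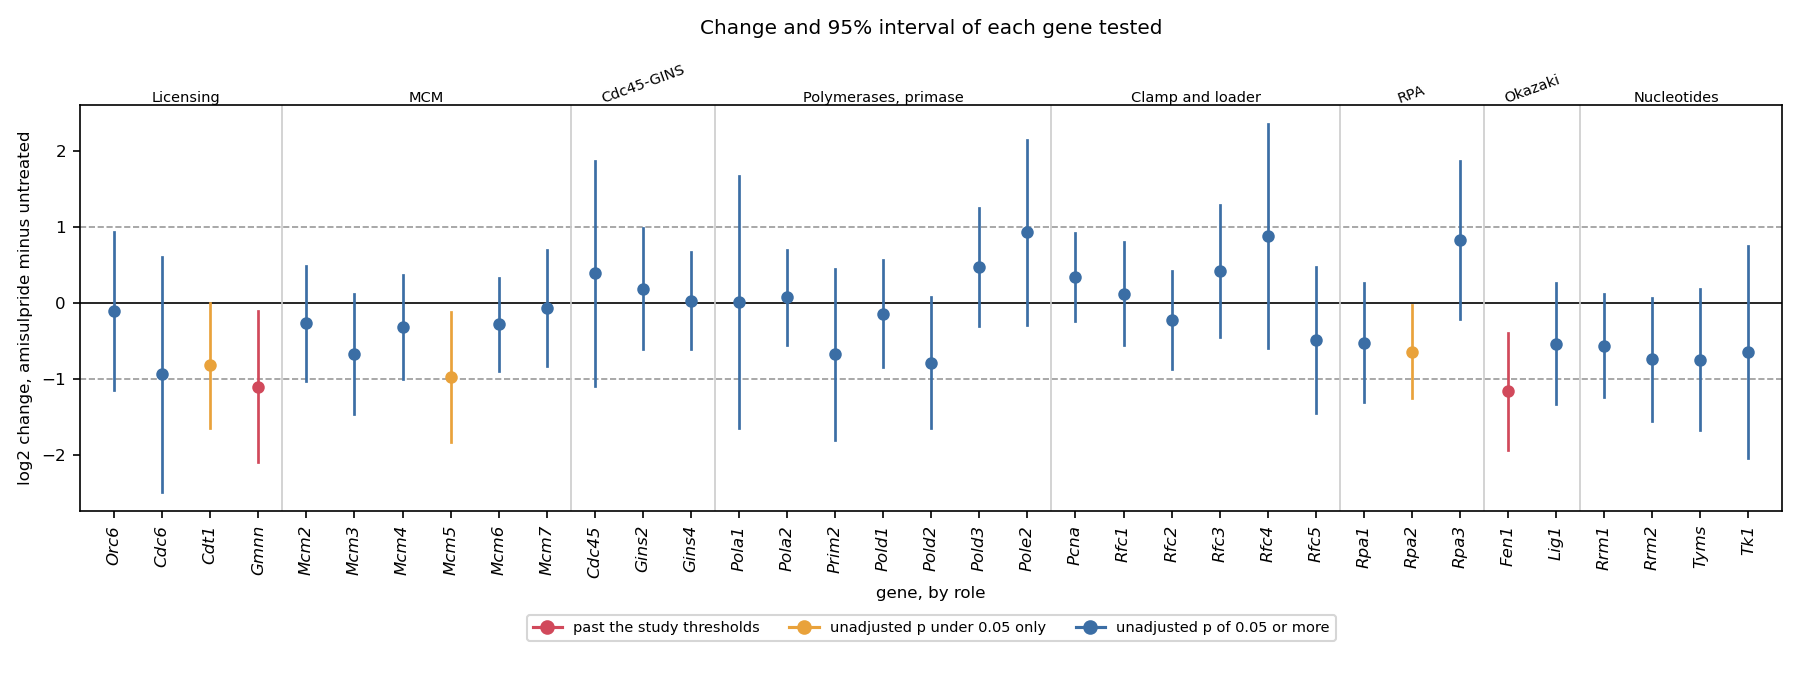
Log2 change with amisulpride (point) and its 95% interval (line) from limma for the 35 genes tested, by role. Red marks Fen1 and Gmnn, which passed the study thresholds, orange the other 3 genes with an unadjusted p under 0.05, and dashed lines a log2 change of −1 and 1.

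The sum over all 41 genes was 2795, 2297 and 2279 normalised counts in the untreated libraries and 2130, 1996 and 2104 with amisulpride. Every treated library lay below every untreated one, and the ratio of the means was 0.845. By role, the sums of both groups did not overlap for the licensing genes (129 to 222 untreated, 94 to 123 treated), the MCM genes (555 to 695 and 468 to 515), RPA (264 to 380 and 213 to 260), the Okazaki genes (143 to 294 and 91 to 139) and the nucleotide supply genes (231 to 276 and 128 to 186). They overlapped for Cdc45-GINS, for the polymerases and primase, and for the clamp and its loader. For the licensing, RPA and Okazaki genes the 2 ranges nearly met. These sums weigh genes with many reads most, no share over all genes stands beside them, and they were not tested.

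**Figure D3:**
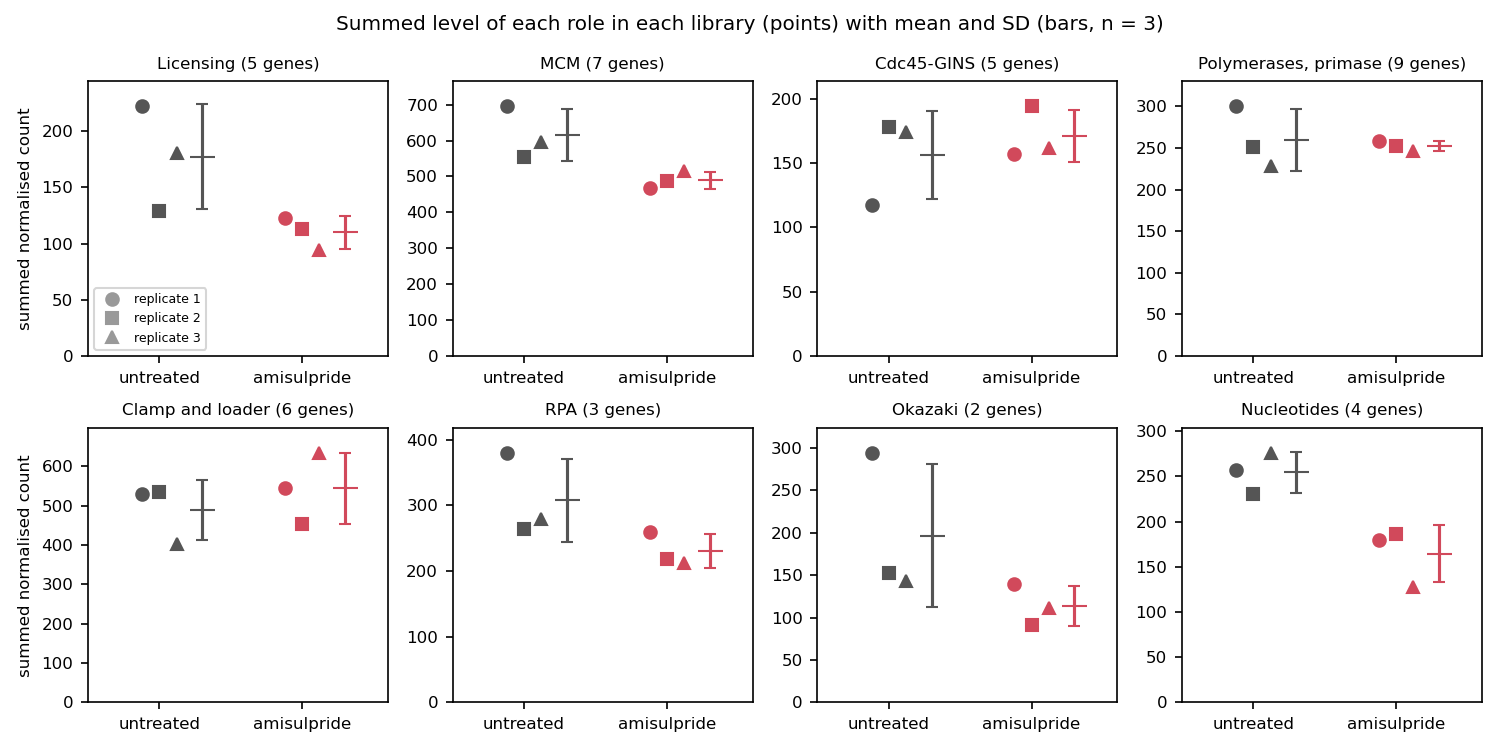
Summed normalised counts per library for each role, untreated in grey and amisulpride in red, with mean and SD (n = 3) beside the points. The nucleotide supply genes lie at 231 to 276 untreated and 128 to 186 treated, while the clamp and loader genes overlap, with 402 to 536 and 454 to 634.

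Licensing genes had a median log2 change of −0.88, and all 4 that were tested lay below 0. Geminin (Gmnn, chr13:24751845-24761923, minus strand), the inhibitor of Cdt1, had normalised counts of 39, 22 and 25 in untreated and 8, 13 and 18 in treated cells. Each treated value lay below each untreated one. The means were 28.7 ± 9.07 and 13 ± 5 (SD over 3 libraries, as in all that follows), and the log2 change was −1.11 ± 0.45 (SE), with a 95% interval of −2.10 to −0.11. The unadjusted limma p was 0.0319 and the adjusted p 0.396, and with the replicate block they were 0.0318 and 0.28. The call of Gmnn was lost without untreated replicate 1 (−0.87), untreated replicate 3 (−1.18) or amisulpride replicate 1 (−0.82). It was also lost with a pseudocount of 5, and with a filter of at least 30 the gene was too low for a test.

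Cdt1 itself (chr8:122568015-122573554, plus strand), the loader that geminin restrains, stood at 131, 50 and 100 untreated and 50, 39 and 59 treated. Untreated replicate 2 lay within the treated range, while each pair of the same replicate number was lower with amisulpride. The log2 change was −0.82 ± 0.37, with an unadjusted limma p of 0.049 (adjusted 0.456). With the replicate block the unadjusted limma p was 0.0183 (adjusted 0.218). The change was −1.22 and past the study thresholds without untreated replicate 2, and −0.53 without untreated replicate 1. Cdt1 lies wholly inside Gm20388, a longer gene model on the same strand with a mean of 2160 normalised counts, so how reads were split between both is uncertain. Cdc6, the ATPase that recruits Cdt1, had 21, 24 and 13 against 19, 17 and 2. Its log2 change of −0.94 had an interval of −2.49 to 0.60 and came to −0.058 without amisulpride replicate 3. Orc6, the smallest subunit of the origin recognition complex, had 28, 31 and 39 against 46, 44 and 13. Here too the third treated library alone was low, and without it the change of Orc6 was 0.46 in place of −0.11, and the median of the role was −0.51. Orc6 also turned above 0 without untreated replicate 3 (0.022) and with weights per library (0.18), so the shared direction of the 4 licensing genes did not hold in those settings.

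All 6 MCM genes tested had a fitted change below 0, with a median of −0.30. Mcm5 (chr8:75109569-75128439, plus strand), a subunit of the MCM2-7 ring, stood at 83, 65 and 65 untreated and 34, 21 and 61 treated. The groups did not overlap, but the third treated library came within 4 normalised counts of the lowest untreated ones. The log2 change was −0.98 ± 0.39 (interval −1.83 to −0.13), with an unadjusted limma p of 0.0276 (adjusted 0.371), or of 0.0132 (adjusted 0.185) with the replicate block. The change was −1.37 ± 0.34 without amisulpride replicate 3 and −0.62 ± 0.37 without amisulpride replicate 2. The unadjusted p was under 0.05 without amisulpride replicate 3 and between 0.0516 and 0.122 without any other library. Mcm6 (chr1:128331590-128359664, minus strand), whose promoter holds 3 E2F words, had 317, 251 and 250 against 158, 241 and 288. The first treated library was far below the rest and the third lay within the untreated range, and the change of −0.29 had an interval of −0.90 to 0.33. It was −0.040 without amisulpride replicate 1.

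Of the other subunits, Mcm3 had 53, 43 and 53 against 33, 20 and 43, with a log2 change of −0.68 and an interval of −1.46 to 0.11. Mcm2, Mcm4 and Mcm7 had changes of −0.27, −0.32 and −0.072. In each of them the third treated library was the lowest of all 6, and without it the changes were −0.030, −0.036 and 0.22. The 6 subunits of the ring thus ranged from −0.98 to −0.072, and all their 95% intervals overlapped. Mir25, a microRNA inside Mcm7, was listed with the same value as Mcm7 in every library, and the values of Mcm7 are uncertain for that reason.

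The partners that turn the ring into an active helicase had fitted changes above 0 in the comparison of all 6 libraries, but each of the 3 turned below 0 in 2 or more other settings. Cdc45, which bridges ring and GINS, stood at 11, 8 and 18 untreated and at 18, 5 and 39 treated. The treated libraries held both the lowest and the highest of the 6 values, and the log2 change was 0.38 with an interval of −1.09 to 1.86. It was −0.25 without amisulpride replicate 3 and −0.081 with weights per library. Gins2, a GINS subunit, had 46, 104 and 89 against 80, 119 and 66, a change of 0.18 with an interval of −0.61 to 0.98, which came to −0.17 without untreated replicate 1 and −0.051 without amisulpride replicate 2. Gins2 lies wholly inside Gm20388 (mean 2160) on the opposite strand, so its values are uncertain if counting did not use the strand. Gins4, another subunit, had 47, 57 and 54 against 55, 62 and 45. Its change of 0.028 had an interval of −0.61 to 0.67, which holds neither a doubling nor a halving. It was −0.050 without untreated replicate 1, −0.076 without amisulpride replicate 2 and −0.044 with libraries scaled to the same total.

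Polymerase and primase genes had a median change of 0.01, with 4 of 7 above 0, and of −0.05 when libraries were scaled to the same total. Pold2, the regulatory subunit of polymerase δ, stood at 26, 25 and 28 untreated and 19, 13 and 13 treated. It was the gene of this role whose groups did not overlap, and its log2 change was −0.79 ± 0.39 (interval −1.65 to 0.07), with an unadjusted limma p of 0.068 (adjusted 0.503). The catalytic subunit Pold1 had 125, 89 and 62 against 91, 87 and 64, a change of −0.15, and the third subunit Pold3 had 34, 43 and 28 against 33, 55 and 61, a change of 0.47. Neither separated the groups. For polymerase α, which starts each strand, Pola1 and Pola2 had changes of 0.0086 and 0.07. The interval of Pola2 was −0.56 to 0.70, whereas that of the low Pola1 was −1.65 to 1.67. Prim2, the large primase subunit, had a change of −0.68. Pole2, a subunit of polymerase ε, had one of 0.92, the largest upward change of the 35, with an interval of −0.29 to 2.14. Transcript ends of Pole2 share 47.99% of their words of 31 bases with Gm49384, so its values are uncertain.

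The sliding clamp and its loader had a median change of 0.23. Pcna (chr2:132249162-132253314, minus strand), the clamp itself, stood at 217, 239 and 157 untreated and 258, 214 and 297 treated. The groups overlapped, with means of 204 ± 42.4 and 256 ± 41.5, and the log2 change was 0.34 ± 0.26 (interval −0.24 to 0.91), with an unadjusted limma p of 0.229 (adjusted 0.696). A halving of Pcna therefore lay outside the 95% interval. Rfc4, which had the lowest p of the loader subunits, had 22, 6 and 5 against 18, 8 and 34. Its change of 0.88 had an interval of −0.60 to 2.35. The gene was too low for a test without untreated replicate 1, amisulpride replicate 1 or amisulpride replicate 3. Rfc1 and Rfc3 had changes of 0.12 and 0.41, and Rfc2 and Rfc5 changes of −0.23 and −0.49. Rfc1 (81, 77 and 77 against 79, 62 and 125) and Rfc3 (60, 54 and 25 against 43, 56 and 81) were highest of all libraries in amisulpride replicate 3. Without that library the median of the role was −0.11.

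RPA was split among its subunits. Rpa2 (chr4:132768332-132778752, plus strand), the middle subunit, stood at 230, 156 and 152 untreated and 137, 111 and 93 treated. All treated values were lower, and the means were 179 ± 43.9 and 114 ± 22.1. The log2 change was −0.64 ± 0.28 (interval −1.26 to −0.03), with an unadjusted limma p of 0.0407 (adjusted 0.431), or of 0.027 (adjusted 0.262) with the replicate block. Rpa1, the large subunit, had 138, 65 and 85 against 84, 44 and 68, a change of −0.53 in which the groups overlapped while each pair of the same replicate number was lower with amisulpride. Rpa3, the smallest subunit, had 12, 43 and 42 against 39, 63 and 52. Its change of 0.82 had an unadjusted limma p of 0.111, or of 0.0403 with the replicate block, and untreated replicate 1 was far below the other libraries. Without that library the change was 0.24, with an unadjusted p of 0.511.

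Fen1 (chr19:10199132-10204169, minus strand) gave the lowest p of the replication genes. It stood at 84, 65 and 42 in untreated and 25, 24 and 32 in treated cells, so that the treated values lay close together below the lowest untreated one. The means were 63.7 ± 21 and 27 ± 4.36. The log2 change was −1.16 ± 0.35 (interval −1.93 to −0.39), with an unadjusted limma p of 0.00663 (adjusted 0.224), or of 0.00518 (adjusted 0.113) with the replicate block. Without amisulpride replicate 3 the change was −1.29 and without untreated replicate 1 it was −0.94, which no longer reached the study thresholds. On the opposite strand, Fen1 overlaps Tmem258 over 156 bases and Gm10143, and whether counting used the strand is not stated in the sources used here. Lig1, the ligase that seals the fragments, had 210, 88 and 101 against 114, 67 and 79. Untreated replicate 1 was far above the others, and the change was −0.54 with an interval of −1.33 to 0.26. It was −0.16 without that library.

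The 4 nucleotide supply genes had the narrowest range of changes of any role with more than 3 genes tested, from −0.57 to −0.75. Rrm1 (chr7:102441695-102469771, plus strand), the large subunit of ribonucleotide reductase, stood at 97, 91 and 159 untreated and 90, 60 and 79 treated. The groups did not overlap, though by 1 normalised count, and the log2 change was −0.57 ± 0.31 (interval −1.24 to 0.11). Rrm2, the small subunit made in S phase, had 95, 87 and 50 against 59, 50 and 29. The groups overlapped, but every pair of the same replicate number was lower with amisulpride. The change was −0.74 ± 0.37, with an unadjusted limma p of 0.0677, or of 0.0269 with the replicate block. Tyms, which makes thymidylate, had 40, 40 and 51 against 21, 48 and 16, and Tk1, which salvages thymidine, had 25, 13 and 16 against 10, 28 and 4. Both had their lowest value in the third treated library and a value within or above the untreated range in the second. Without amisulpride replicate 3 the changes of Rrm2, Tyms and Tk1 were −0.45, −0.43 and −0.040, and that of Rrm1 was −0.60. Without untreated replicate 3 that of Rrm1 was −0.32, while Rrm2 came to −1.03 and passed the study thresholds. Tyms passed them without amisulpride replicate 2 (−1.20). Transcripts of Rrm2 share sequence near their 3′ ends with pseudogenes, which a 3′ kit may not separate.

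**Figure D4:**
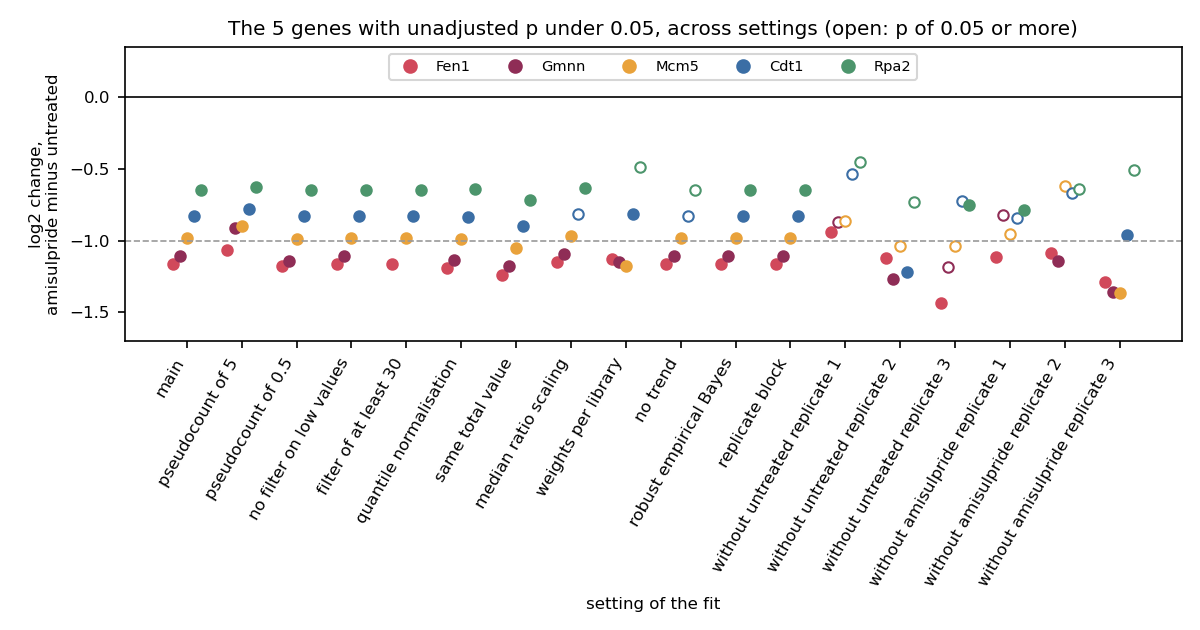
Log2 change of the 5 genes with an unadjusted p under 0.05 in the main comparison, under that comparison and 17 other settings of the fit. Filled points have an unadjusted p under 0.05 and open points do not, and all values lie below 0, with Fen1 between −1.43 and −0.94.

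Amisulpride replicate 3 was the lowest of all libraries in 12 of the 35 genes (34.3%; all genes 24%) and the highest in 7 (20%; all genes 24.8%). Untreated replicate 1 was the highest in 11 (31.4%; all genes 19.4%), and amisulpride replicate 2 the lowest in 9 (25.7%; all genes 17.1%). Untreated replicate 1 held the highest value of each of the 5 genes with an unadjusted p under 0.05.

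Further genes of the pathway were taken as 6 lists of 88 genes, 77 of which were tested. Past the study thresholds 5 of 77 were lower and 1 was higher (6.49% and 1.3%, against 3.01% and 2.69% of all genes), and none had an adjusted p under 0.05. Their median log2 change was −0.15. Of 12 origin genes tested, Dbf4, the activator of the Cdc7 kinase that fires origins, stood at 53, 49 and 59 untreated and 29, 23 and 23 treated, a change of −1.08 ± 0.32 with an unadjusted limma p of 0.0057 (adjusted 0.21). The treated values were close together and well below the untreated ones. Of 15 fork genes, Pclaf, the PCNA-associated factor, had 95, 69 and 103 against 46, 43 and 20 (−1.34 ± 0.37), and Clspn, the checkpoint adaptor claspin, had 48, 31 and 46 against 24, 7 and 29 (−1.21 ± 0.50). For both, the groups did not overlap. Clspn lost its call without amisulpride replicate 2 (−0.61), untreated replicate 1 (−1.09) or untreated replicate 3 (−1.12), and Pclaf lost its call without amisulpride replicate 3 (−0.96). The interval of Pclaf, −2.14 to −0.53, did not meet that of its partner Pcna, −0.24 to 0.91. The difference between both genes was not tested, and Pclaf was named because it passed the thresholds.

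Of 6 chromatin copying genes, the histone chaperone genes Asf1b and Chaf1a passed the study thresholds (33.3%, against 5.7% of all genes). Asf1b had 72, 31 and 32 against 13, 4 and 30, a change of −1.72 ± 0.62, and Chaf1a had 42, 49 and 38 against 34, 23 and 5, a change of −1.35 ± 0.58. Asf1b lost its call without amisulpride replicate 2 (−1.03) or untreated replicate 1 (−1.33). Chaf1a lost its call without amisulpride replicate 3 (−0.59), without untreated replicate 1, 2 or 3 (−1.36, −1.26 and −1.44) and with weights per library. Of 22 further nucleotide genes, Dctd, the deoxycytidylate deaminase, was higher with amisulpride (8, 14 and 21 against 25, 24 and 59, a change of 1.24 ± 0.50). Its call was lost without untreated replicate 1 (0.90), untreated replicate 2 (1.27) or amisulpride replicate 3 (0.83) and with weights per library. With the replicate block the folate enzyme gene Shmt1 also passed (−1.56), which made 2 of 22 (9.09%, against 6.61% of all genes).

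None of the 15 E2F and G1/S genes passed the study thresholds. Ccne1, which encodes cyclin E1 and had the lowest p of that list, stood at 124, 136 and 123 against 82, 71 and 57, a change of −0.87 ± 0.27 with an unadjusted limma p of 0.00709 (adjusted 0.229). The groups were well apart, yet the change was short of the fold threshold. E2f1, which encodes the activating factor itself, had 521, 453 and 538 against 685, 561 and 331, a change of 0.00 with an interval of −0.64 to 0.64. None of 7 fork checkpoint genes passed, and Rad9a, with the lowest p of that list, had a change of −0.66 with an interval of −1.68 to 0.36.

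Mitosis genes, which act after replication, served for comparison. Of 28 genes 22 were tested, and 20 of these had a change below 0 (90.9%, against 49.9% of all genes). The median was −0.70, where that of the replication genes was −0.29. Past the study thresholds were 5 mitosis genes (22.7%), all lower, against 3.01% of all genes in that direction. They were Cdc20, Plk1, Mki67, Nuf2 and Ube2c. At an unadjusted p under 0.05 there were 10 mitosis genes (45.5%), all lower, against 5.77% of all genes in that direction. Of the replication genes 5 of 35 (14.3%) had such a p. No mitosis gene had an adjusted p under 0.05 in the main comparison, and 1 had with weights per library. With the replicate block 2 had (9.09%, against 2.08% of all genes), Cdc20 (0.0403) and Ube2c (0.026), and none of the replication genes. Without amisulpride replicate 3 the count past the study thresholds was 11. Plk1, the kinase that drives entry into mitosis, had 86, 118 and 129 against 54, 44 and 54, a change of −1.10 ± 0.28. All its treated values lay well below the untreated ones, and it lost its call without untreated replicate 3 (−0.98). Cdc20 lost its call without amisulpride replicate 3 (−0.93), Mki67 in 4 of the 6 fits that left out a library and Nuf2 in 5 of them. The difference between both lists was not tested, because the lists were chosen with results known.

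Of 6 CDK inhibitor genes tested, 5 had a change below 0 (83.3%; all genes 49.9%), and the median was −0.16. Cdkn2c, which encodes p18, was lower with amisulpride past the study thresholds (23, 32 and 36 against 17, 7 and 7, a change of −1.56 ± 0.48). That is 1 of 6 genes (16.7%), where 5.7% of all genes passed. Cdkn1a, which encodes the p53-induced inhibitor p21 and was the only gene of the list above 0, had 1707, 1482 and 1654 against 1770, 1594 and 1929. Its change of 0.13 had an interval of −0.38 to 0.63, which holds no doubling.

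**Figure D5:**
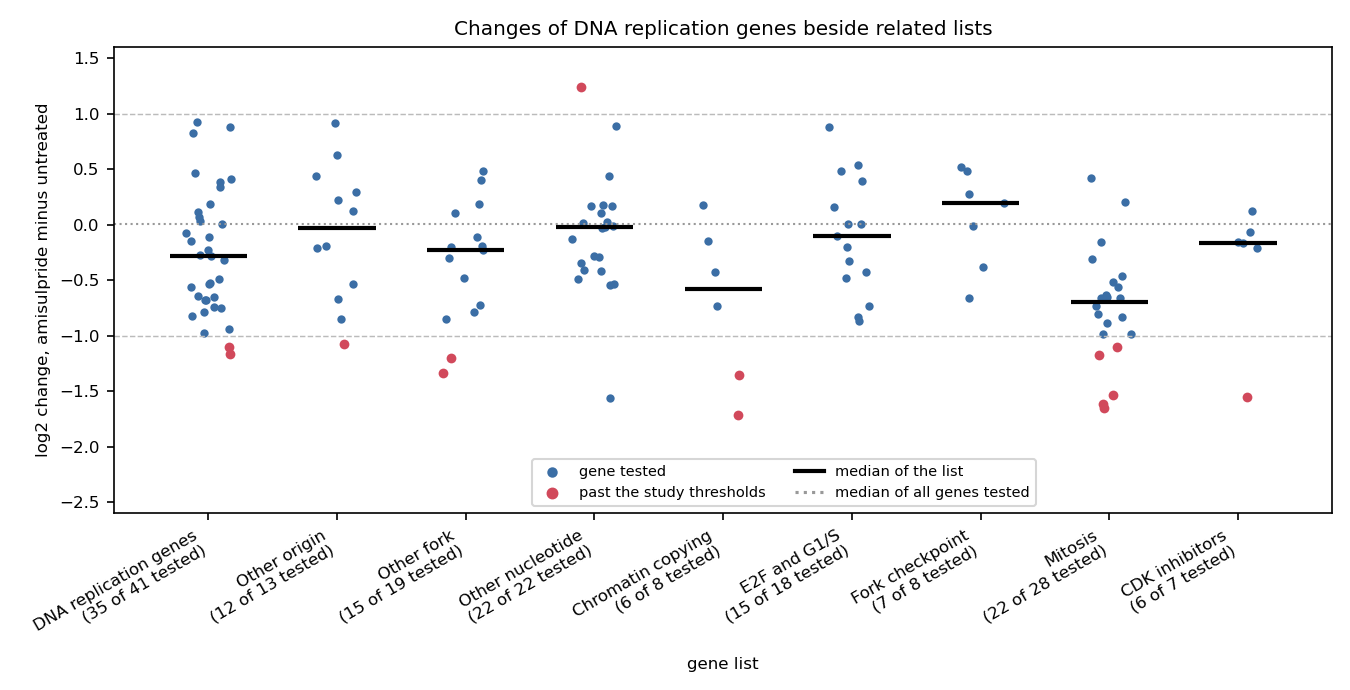
Log2 change with amisulpride of each gene tested, by list, with red points past the study thresholds, black bars for list medians and a dotted line for the median of all genes tested. The replication genes centre at −0.29 and the mitosis genes at −0.70, while the fork checkpoint genes centre at 0.19.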

How the data were processed

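RNA of cultured hTNFtg SFs was made into 3′ end libraries (QuantSeq) and sequenced on an Ion Proton. Per the labels and the study's methods, the authors mapped reads to mm10 with TopHat2 and Bowtie2, counted them per gene and normalised them with DESeq, with versions not given in the sources used here. The deposited values used are a score, namely read counts divided by 1 factor per library and rounded. The authors also deposited the GC content of each gene as a fraction, which was not used in any test. Another 12 columns of library values on other scales, and the authors' columns of p-values, adjusted p-values and fold changes between the groups, were not used.

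Because of the rounding no count test was run. The value of 1 read was estimated from steps between low values, checked on simulated data. Groups were compared with limma 3.58.1 (R 4.3.3) on log2(normalised count + 1), two-sided, with empirical Bayes moderation along a mean-variance trend (prior degrees of freedom 7.31). Genes needed at least 10 in at least 3 of 6 libraries. The fold change on this scale understates the change of low genes. The adjusted p is Benjamini-Hochberg over 12614 genes, and other p-values are unadjusted.

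The labels number replicates 1 to 3 in both groups without naming a shared animal. Deviations from the group means correlated at 0.229, 0.24 and 0.201 between libraries of the same number and at −0.149 to −0.0777 otherwise, so the numbers were taken to pair the libraries, and a fit with the number as a block was an alternative. The SEs, intervals and p-values given come from the fit without the block unless another setting is named. The others were other pseudocounts, filters and scalings, weights per library, other moderation, and leaving out each library.

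The 41 genes, the other lists and the rules were chosen with earlier results of these data known. Libraries are given for each gene past the study thresholds and for the lowest p and the highest mean of each role, and for genes whose call moved with a setting. Of other lists the genes past the thresholds and the lowest p are named, and E2f1, Cdkn1a and Shmt1 were named after their values were seen. Positions of all 41 genes overlapped those of GENCODE M21 (GRCm38, which is mm10). Genes whose transcript ends share at least 5% of their words of 31 bases with another gene are uncertain, namely Gmnn, Mcm4, Mcm5, Mcm7, Pold3, Pole2, Rpa3, Rrm2 and Tyms. The share was largest for Pole2 (47.99%, with Gm49384) and Mcm7 (44.8%, with Gm5487). Tk1, like Gins2, lies wholly inside a gene model on the opposite strand. Cdc45, Fen1, Lig1, Mcm7, Orc6, Rfc2, Rfc4 and Rfc5 partly overlap protein-coding genes there. Whether counting used the strand is not stated, so these genes are uncertain too. Floors and depths cover counting error only.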

Additional observations from a re-analysis of the deposited data

How the results depend on the processing

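No replication gene had an adjusted p under 0.05 in any of the settings tried. The number past the study thresholds, 2, was 1 with a pseudocount of 5 or a filter of at least 30 (Gmnn lost). It was 3 with no filter on low values (Orc1 added) and 3 with the same total per library or with weights per library (Mcm5 added). When a library was left out it was 0 to 3. Leaving out untreated replicate 1 left 0, and leaving out amisulpride replicate 1 left 1. Cdt1 passed without untreated replicate 2, Rrm2 without untreated replicate 3 and Tyms without amisulpride replicate 2. The number of genes without overlap, 6, was 6 to 11 with a library left out, which has fewer values to overlap by construction. The median change of the replication genes lay between −0.46 and −0.14. The log2 changes of 9 genes, none of them called in any setting, turned sign in at least 1. With weights per library Orc6 came to 0.18, Mcm7 to 0.15, Cdc45 to −0.081, Pold1 to 0.067 and Rfc1 to −0.047. With the same total per library Gins4 came to −0.044, Pola1 to −0.048 and Pola2 to −0.0022, and with a pseudocount of 5 Pola1 came to −0.021. With a library left out Orc6 ranged from −0.41 to 0.46, Mcm7 from −0.27 to 0.22, Cdc45 from −0.25 to 1.12, Gins2 from −0.17 to 0.41, Gins4 from −0.076 to 0.15, Pola1 from −0.74 to 0.60, Pola2 from −0.035 to 0.16, Pold1 from −0.40 to 0.10 and Rfc1 from −0.16 to 0.34. Over all genes the number with an adjusted p under 0.05, 36, was 57 with a pseudocount of 5 and also without a filter on low values, 66 with quantile normalisation, 195 with weights per library, 263 with the replicate block, 133 at a threshold of 0.1 and 0 to 120 with a library left out (0 without untreated replicate 2 or 3). The 719 genes past the study thresholds became 1313 without the filter and 462 with a filter of at least 30. The mitosis genes past them, 5, were 3 with that filter, 8 with weights per library and 3 to 11 with a library left out. Those with an adjusted p under 0.05 were 1 with weights and 2 with the block, and their median lay between −0.98 and −0.59 with a library left out. The other replication lists had 3 to 9 past the study thresholds with a library left out. Of the calls at the study thresholds, the replicate block added Shmt1 and Ptprc among the genes of all lists, and its calls by adjusted p among them were Cdc20, Ube2c and Cd14. The cause of these shifts was not tested. Depth limits the genes under 30 normalised counts most: the median SE of the 9 replication genes with a mean under 30 was 0.64, against 0.35 for the rest.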
